A study of Mus musculus with 8 samples.

Results

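The genes described here are 10 markers of hepatic stellate cells and of the cells that wrap vessels, chosen by gene symbol: Lrat, Reln, Ecm1, Hgf, Dcn, Lum, Pdgfrb, Des, Rgs5 and Acta2. All 10 were found among 24674 named lines of the deposited liver expression table, and all 10 passed the filter on low values that left 14390 genes for testing. Liver RNA came from 8 female mice in 2 groups of 4. The WT mice were wild type and had wild-type ancestors throughout. The F2_outcross mice were wild type too, but their maternal grandmother was Khdc3-null, so the genotype of the animals was the same in both groups and the ancestry differed. The labels give no age, strain, litter or collection time. The design compares the livers of wild-type granddaughters of a female without Khdc3, a gene active in oocytes, with livers of mice of wild-type ancestry.

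Hepatic stellate cells lie between the sinusoidal endothelium and the hepatocytes and hold most of the body's vitamin A as retinyl esters. In a healthy liver they are quiescent. After injury they lose their vitamin A, take on a contractile, myofibroblast-like state marked by smooth muscle actin, and lay down matrix. Pericytes and vascular smooth muscle cells share some of their genes, so no member is exclusive to stellate cells.

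Values are normalized reads, that is, the authors' read counts per gene divided by a size factor of each library. The libraries held 28028650 to 35843972 reads. The labels give liver as the tissue and hepatocyte as the cell type, and the hepatocyte gene Alb stood at 987363 to 1500660 normalized reads per kilobase of exon. Clec4f, which marks Kupffer cells, stood at 1890.3 to 4471 per kilobase and Stab2 of sinusoidal endothelium at 205 to 286 per kilobase, so the RNA also held transcripts that mark the other cells of the liver. In bulk RNA, fewer cells of a type and less RNA per cell cannot be told apart.

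None of the 10 members passed the test between the groups. In limma across all 14390 genes, 0 of 10 passed a Benjamini-Hochberg adjusted p of 0.05, against 2.66% of all tested genes (383 genes, 230 higher and 153 lower in F2_outcross). At an unadjusted p under 0.05 the count was 0 of 10 as well, against 21.1% of all genes, and limma voom on the recovered whole reads also called 0. The 4 values of one group overlapped those of the other for every member, while 12% of all tested genes had groups that did not overlap. With 10 genes these counts are near the background and say little about the members as a set. The members' median log2 fold change was -0.04 beside -0.01 for all tested genes, with 3 members positive and 7 negative. Adjusted p-values in limma ran from 0.474 (Reln) to 0.965 (Dcn).

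**Figure D1:**
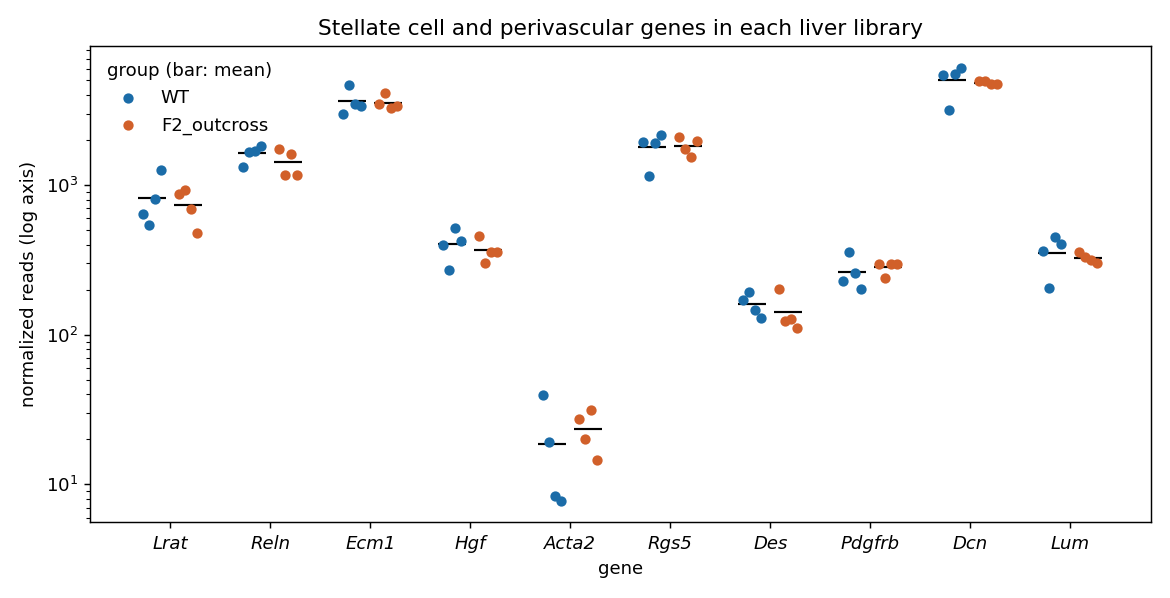
Normalized reads (log axis) of the 10 genes in each library, with WT and F2_outcross side by side (n = 4 per group) and a bar at the group mean. Points of both groups overlap for every gene, and Acta2 lies lowest, between 7.80 and 39.7 normalized reads.

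The intervals show what size of difference these data leave possible. Apart from Acta2, the 95% intervals of the fold changes allowed at most a 1.42-fold rise (Pdgfrb) and at most a 1.58-fold fall (Lrat). For Acta2 the interval ran from 0.713-fold to 2.95-fold. A p that misses the threshold does not show that the groups were alike.

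**Figure D2:**
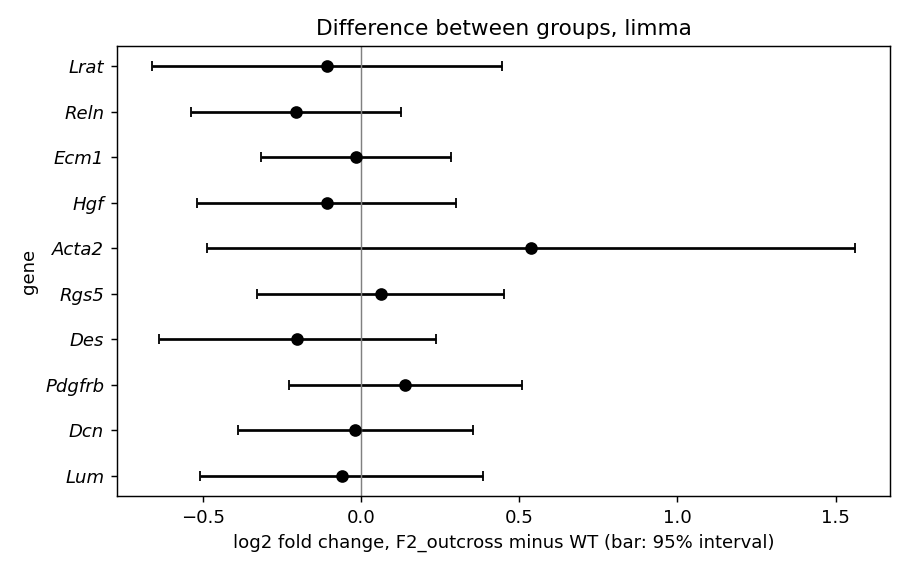
Log2 fold change of F2_outcross against WT for each gene (point) with its 95% interval from limma (bar). Every interval includes 0, and that of Acta2, from -0.49 to 1.56, is the widest.

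The members spanned a wide range of levels per length of transcript. Per kilobase of exon, the mean over the 8 libraries was 1428 normalized reads for Ecm1, 848 for Dcn, 399 for Rgs5, 146 for Lrat, 139 for Lum, 64.4 for Reln, 53.5 for Hgf, 49.6 for Pdgfrb, 40.1 for Des and 9.58 for Acta2. The per-kilobase ranges over libraries did not overlap between Ecm1 and Dcn, Dcn and Rgs5, Rgs5 and Lrat, Lum and Reln, or Des and Acta2. The order within the pairs Lrat and Lum, Reln and Hgf, Hgf and Pdgfrb, and Pdgfrb and Des was not separated by that spread.

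Lrat, lecithin retinol acyltransferase, makes the retinyl esters that stellate cells store (chromosome 3, 82892579 to 82903973, GRCm38). It stood at 644, 542, 811 and 1268 normalized reads in WT replicates 1 to 4 and at 868, 922, 695 and 479 in F2_outcross replicates 1 to 4. The highest library was a WT one and the lowest an F2_outcross one, and the groups overlapped. The means were 816 ± 321 in WT and 741 ± 200.1 in F2_outcross (SD, n = 4 per group; log2 change -0.11 ± 0.25 SE, limma adjusted p = 0.847). Between its extreme libraries Lrat differed 2.65-fold, the widest span among the members other than Acta2. Lrat overlaps an antisense gene and Reln, Des, Ecm1 and Hgf overlap other genes, and since the strand setting of the counting is unknown, reads of such pairs cannot be told apart.

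Libraries high or low in Lrat were mostly also high or low in 3 genes known to respond to retinoic acid. Retinoic acid, the active form of vitamin A, binds nuclear receptors that switch on Cyp26a1 and Cyp26b1, which degrade it, and Rarb, one of its receptors. In rodent liver Lrat itself is known to be induced by it. Cyp26a1 stood at 322, 178, 457 and 2009.6 normalized reads in WT replicates 1 to 4 and at 1397, 1111, 502 and 113 in F2_outcross replicates 1 to 4. Cyp26b1 stood at 498, 302, 502 and 1106 in WT and at 931, 1435, 631 and 47.8 in F2_outcross. Rarb stood at 189, 151, 278 and 316 in WT and at 270.4, 264, 225 and 113 in F2_outcross. F2_outcross replicate 4 was lowest for Lrat and for all 3 of these genes, WT replicate 2 was the lowest WT library for each, and WT replicate 4 was the highest library for Lrat, Cyp26a1 and Rarb. None of the 3 genes passed the test between the groups in limma (adjusted p = 0.915 for Cyp26a1, 0.889 for Cyp26b1 and 0.855 for Rarb).

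Across the 8 libraries, on log2(normalized reads + 1), Lrat correlated with Cyp26a1 (Pearson r = 0.959, exact permutation p = 0.000198; Spearman rho = 0.952, exact p = 0.00114). For Rarb the values were r = 0.935 (exact p = 0.000372) and rho = 0.905 (exact p = 0.00456), and for Cyp26b1 r = 0.828 (exact p = 0.00838) and rho = 0.952 (exact p = 0.00114). These are 3 of 13 tested genes of a list on retinoid storage and use that were each set against Lrat. They alone passed the adjustment over the 13 relations, by Pearson (exact permutation, adjusted p = 0.00242, 0.00242 and 0.0363 for Cyp26a1, Rarb and Cyp26b1) and by Spearman (exact permutation, adjusted p = 0.00742, 0.0198 and 0.00742). Without the 2 libraries farthest from the median of Lrat, WT replicate 4 and F2_outcross replicate 4, r was 0.927 for Cyp26a1, 0.954 for Rarb and 0.886 for Cyp26b1. With each group's mean subtracted, Cyp26a1 was the gene of all 14389 others whose pattern was most like that of Lrat (r = 0.978), Rarb ranked 14 and Cyp26b1 106. Rhobtb3, which is not on the retinoid list, ranked 2 (r = 0.976). Among the other listed genes, Rbp4, which carries retinol in blood, had r = -0.47 with Lrat (exact permutation p = 0.240). The retinoid list was chosen with earlier results of these data known, and the adjusted p-values do not cover that choice. What varied between the mice was not recorded in the labels, and 8 libraries limit the precision. These data hold no measure of retinoids, and retinoic acid as a cause of the shared pattern was not tested.

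**Figure D3:**
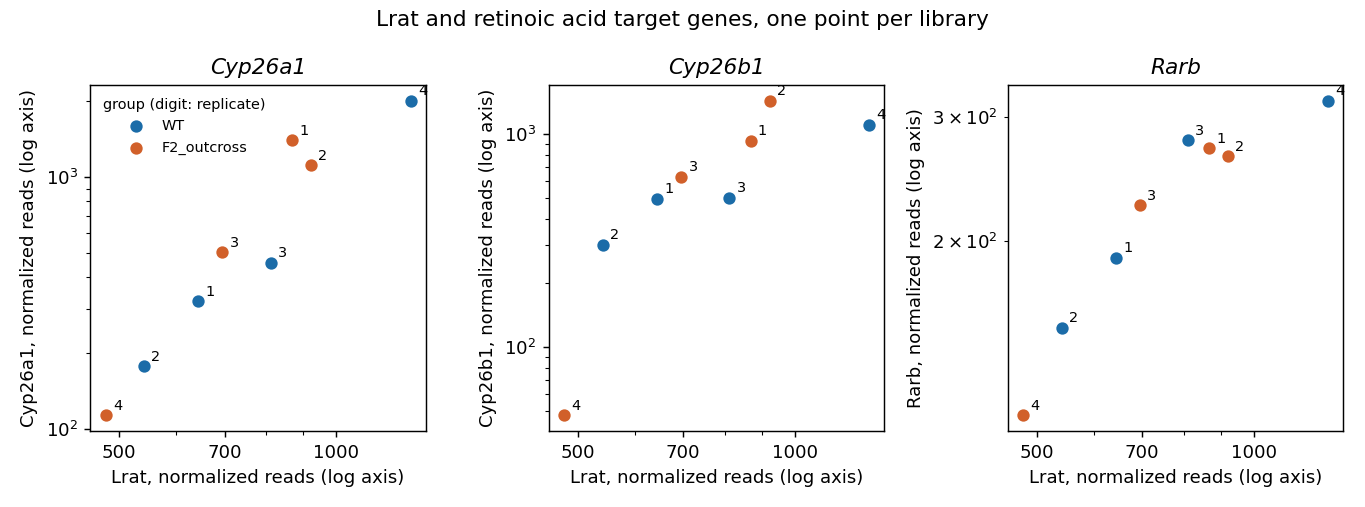
Normalized reads of Cyp26a1, Cyp26b1 and Rarb (y, log axes) against those of Lrat (x, log axis), 1 point per library, coloured by group and numbered by replicate. In each panel F2_outcross replicate 4 sits lowest at the left, at 113, 47.8 and 113 normalized reads, and points of both groups lie along one rising band.

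The start regions of these genes were also searched for a sequence feature. The windows below run from 250 bases before to 50 bases after the transcription start (RefSeq, build GRCm38.p6), 5′ to 3′ on the gene's own strand. They are shown for Lrat and for Cyp26a1 and Rarb, which moved with Lrat. Capitals mark the DR5 retinoic acid response element, a direct repeat of receptor hexamers with 5 bases between them, searched on both strands. Lrat lies at chr3:82903925-82904224 on the minus strand, Cyp26a1 at chr19:37697558-37697857 on the plus strand and Rarb at chr14:16575427-16575726 on the minus strand.
Lrat: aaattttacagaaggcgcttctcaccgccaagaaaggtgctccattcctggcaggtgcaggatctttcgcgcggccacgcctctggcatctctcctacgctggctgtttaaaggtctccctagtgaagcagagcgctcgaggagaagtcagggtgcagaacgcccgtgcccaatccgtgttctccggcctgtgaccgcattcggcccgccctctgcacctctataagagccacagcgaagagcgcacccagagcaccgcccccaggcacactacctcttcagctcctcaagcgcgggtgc
Cyp26a1: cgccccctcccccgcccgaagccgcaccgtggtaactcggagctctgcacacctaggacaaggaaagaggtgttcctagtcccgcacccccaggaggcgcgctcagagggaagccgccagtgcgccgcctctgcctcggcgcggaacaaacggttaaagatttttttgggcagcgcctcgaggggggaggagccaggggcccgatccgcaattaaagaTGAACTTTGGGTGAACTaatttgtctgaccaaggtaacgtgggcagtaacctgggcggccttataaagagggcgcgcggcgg
Rarb: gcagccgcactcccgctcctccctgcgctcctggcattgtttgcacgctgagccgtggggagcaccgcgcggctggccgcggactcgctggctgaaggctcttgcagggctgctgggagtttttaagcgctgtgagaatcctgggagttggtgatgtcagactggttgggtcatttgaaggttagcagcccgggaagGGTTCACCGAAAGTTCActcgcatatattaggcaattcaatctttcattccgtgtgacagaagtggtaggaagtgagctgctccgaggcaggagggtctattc
In Cyp26a1 the element, 17 bases long, lies on the opposite strand and covers bases 32 to 16 before the start. In Rarb it lies on the gene's strand, from base 53 to base 37 before the start. It occurred in 32 of 32851 windows of this length (0.0974%), in 2 of the 11 genes of the retinoid list with a window and in 0 of the 7 members with a window. The Lrat window held none, and neither did that of Cyp26b1, which also moved with Lrat and is not shown. The retinoid list was chosen by role, and its share counts genes where the share over all windows counts windows. These shares were not tested against each other. A match describes these letters and is not a measured binding site, and the lack of one says only that the letters are not in this window.

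Reln encodes reelin, a large secreted glycoprotein that in the liver marks stellate cells (chromosome 5, 21884454 to 22344702). It stood at 1316, 1676, 1697 and 1830.2 normalized reads in WT replicates 1 to 4 and at 1746, 1169, 1619 and 1172 in F2_outcross replicates 1 to 4. F2_outcross replicates 2 and 4 were the lowest libraries, and the other 2 F2_outcross libraries lay within the WT range. The log2 fold change (log2 change from here on) was -0.21 ± 0.15 (SE, n = 4 per group; limma adjusted p = 0.474). With trends of GC content and length removed it was -0.32 (adjusted p = 0.122), the lowest adjusted p of any member under any of the 17 alternatives. Of the genes that receive reelin, Vldlr had a log2 change of -1.02 ± 0.40 (adjusted p = 0.173) and the adaptor Dab1 one of -0.11 ± 0.39 (adjusted p = 0.903). Lrp8, the other receptor, fell below the filter.

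Hgf, hepatocyte growth factor, is made in the liver mainly by non-parenchymal cells and acts on hepatocytes through the receptor Met (chromosome 5, 16553495 to 16620152). It stood at 396, 269.8, 516 and 425 normalized reads in WT replicates 1 to 4 and at 454, 300.1, 359 and 355 in F2_outcross replicates 1 to 4, with a log2 fold change of -0.11 ± 0.19 (limma adjusted p = 0.787). WT replicate 2 was the lowest library. Of 8 listed genes for the HGF receptor, its activators and inhibitors, 6 were tested and 0 passed. Met had a log2 change of 0.25 ± 0.14 (adjusted p = 0.318) and Hpn, the protease hepsin, one of 0.25 ± 0.12 (adjusted p = 0.265). Ecm1, extracellular matrix protein 1, which holds TGF-beta in its latent form and is made by hepatocytes as well (chromosome 3, 95734147 to 95739569), stood at 2972, 4699.7, 3504 and 3376 in WT and at 3467, 4115, 3278 and 3381 in F2_outcross. Its highest library was WT replicate 2 and its log2 fold change was -0.02 ± 0.14 (adjusted p = 0.961). Of 12 tested genes for TGF-beta ligands, receptors and their activation, 0 passed, and the smallest p belonged to Ltbp4, a latent TGF-beta binding protein (log2 change 0.33 ± 0.15, adjusted p = 0.238).

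Dcn and Lum encode decorin and lumican, small leucine-rich proteoglycans that bind collagen fibrils and are neighbours on chromosome 10 (97479609 to 97518143 and 97565128 to 97572703). Dcn stood at 5411, 3181, 5516 and 6097 normalized reads in WT replicates 1 to 4 and at 4952, 4926, 4766 and 4737 in F2_outcross replicates 1 to 4. Lum stood at 362, 204, 449 and 402 in WT and at 356, 329.9, 317 and 302 in F2_outcross. For both genes WT replicate 2 was the lowest of the 8 libraries, the other 3 WT libraries were the highest, and the 4 F2_outcross libraries lay close together between them. The SD of Dcn was 1283 in WT and 109 in F2_outcross, and that of Lum 106 and 22.6 (n = 4 per group), a difference in spread that was not tested. The log2 fold changes were -0.02 ± 0.17 for Dcn and -0.06 ± 0.21 for Lum (adjusted p = 0.965 and 0.895). Without WT replicate 2 they were -0.23 and -0.31, and neither passed.

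Of 10 other small leucine-rich proteoglycans listed, 7 were in the table and 5 were tested. All 5 had positive fold changes and 0 passed (median log2 fold change 0.48, beside -0.01 for all tested genes). Ogn, osteoglycin, stood at 53.6 ± 5.62 in WT and 86.6 ± 13.0 in F2_outcross (SD, n = 4 per group; log2 change 0.68 ± 0.18, adjusted p = 0.0642). The groups did not overlap for Ogn. Bgn, biglycan, had a log2 change of 0.14 ± 0.10 (adjusted p = 0.464) and Podn, podocan, one of 0.48 ± 0.29 (adjusted p = 0.362). The list median was the value of Podn. Its lowest library was WT replicate 4, at 49.1 normalized reads. The other WT libraries lay at 97.3 to 107 and the F2_outcross libraries at 71.1 to 146.

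The contractile and perivascular members differed in level. Per kilobase of exon, Acta2, Des and Pdgfrb had the lowest means of the 10 members, while Rgs5, at 399, lay above Lrat, at 146. Acta2, smooth muscle actin, the standard mark of contractile stellate cells and of vascular smooth muscle (chromosome 19, 34241090 to 34255590), stood at 39.7, 19.2, 8.35 and 7.80 normalized reads in WT replicates 1 to 4 and at 27.2, 20.1, 31.2 and 14.6 in F2_outcross replicates 1 to 4. These rest on 51, 19, 8 and 10 reads in WT and 31, 21, 36 and 15 in F2_outcross. WT held both the highest and the lowest libraries, and the F2_outcross libraries lay within the WT range. The log2 fold change was 0.54 ± 0.47 (limma adjusted p = 0.555). Without WT replicate 1 it was 0.98 and without WT replicate 4 it was 0.25, and neither passed. Actin genes are similar in their coding sequence, so some reads of Acta2 may have been counted for other actin genes or the reverse. This was not tested.

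Des, desmin, the intermediate filament of muscle and of rodent stellate cells (chromosome 1, 75360329 to 75368579), stood at 171, 192, 146 and 129.5 in WT and at 204, 123, 127 and 111 in F2_outcross (log2 change -0.20 ± 0.20, adjusted p = 0.608). Its highest library was F2_outcross replicate 1 and the other 3 F2_outcross libraries were the 3 lowest. Pdgfrb, the receptor through which PDGF drives stellate cell and pericyte growth, stood at 227, 357, 258 and 202 in WT and at 297, 241, 295 and 296 in F2_outcross (log2 change 0.14 ± 0.17, adjusted p = 0.680). Rgs5, a regulator of G protein signalling typical of pericytes (chromosome 1, 169655501 to 169695813), stood at 1955, 1148, 1920.1 and 2153 in WT and at 2087, 1746, 1530.5 and 1973 in F2_outcross (log2 change 0.06 ± 0.18, adjusted p = 0.877). WT replicate 2 was the highest library for Pdgfrb and the lowest for Rgs5.

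Set against Lrat as a quiescence mark, the contractile mark Acta2 was a small fraction. On the per-kilobase scale the ratio of Acta2 to Lrat was 0.150, 0.0864, 0.0251 and 0.0150 in WT replicates 1 to 4 and 0.0764, 0.0532, 0.109 and 0.0744 in F2_outcross replicates 1 to 4. WT spanned the whole range and the groups overlapped. As log2 ratios the means were -4.41 ± 1.54 in WT and -3.72 ± 0.42 in F2_outcross (SD, n = 4 per group). The ratio of Rgs5 to Lrat ran from 2.00 to 4.85, that of Des to Lrat from 0.146 to 0.505 and that of Pdgfrb to Lrat from 0.156 to 0.643, and the mean log2 ratios differed between groups by 0.17, -0.10 and 0.25. No test was made of these ratios.

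Few pairs of members varied together. Of 45 pairs of members, 3 correlated past an adjusted p of 0.05 by Pearson and 1 by Spearman. Dcn and Lum had r = 0.950 (exact permutation p = 0.00233, adjusted p = 0.0465) and rho = 0.976 (exact p = 0.000397, adjusted p = 0.0179), and r = 0.893 without WT replicates 2 and 4, the 2 libraries farthest from the median of Dcn. Hgf and Lum had r = 0.872 (exact permutation p = 0.00310, adjusted p = 0.0465) and rho = 0.857 (exact p = 0.0107, adjusted p = 0.241), with r = 0.642 without WT replicates 2 and 3. Pdgfrb ran opposite to Dcn (r = -0.86, exact permutation p = 0.00280, adjusted p = 0.0465; rho = -0.76, exact p = 0.0368, adjusted p = 0.414), with r = -0.68 without WT replicates 2 and 4. Rgs5 and Dcn had r = 0.898 (exact permutation p = 0.00831, adjusted p = 0.0935), which fell to 0.469 without WT replicate 2 and F2_outcross replicate 3, so that relation rests on those libraries.

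In WT replicate 2 the members divided by the base composition of their transcripts. Dcn, Hgf, Rgs5, Lum and Lrat, with a GC content of 37.4% to 42.0%, were 0.46 to 0.70 below their mean in that library on the log2 scale, at -0.62, -0.48, -0.63, -0.70 and -0.46. Pdgfrb, Des and Ecm1, with 54.9% to 58.3%, were above it, at 0.41, 0.38 and 0.40. Over 14073 genes, the deviation of WT replicate 2 from the gene mean had a Spearman rho of 0.442 with GC content, that of WT replicate 4 one of -0.37, and the other 6 libraries lay between -0.15 and 0.129. This is a correlation across genes, which are not independent replicates. With the GC and length trends of each library removed, WT replicate 2 was still the lowest for Dcn (-0.29), Lum (-0.49) and Rgs5 (-0.39). The correlation of Dcn with Lum was then 0.825, that of Pdgfrb with Dcn -0.91, and those of Lrat with Cyp26a1, Rarb and Cyp26b1 were 0.926, 0.932 and 0.897. The part of base composition in the members' values was not tested further.

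**Figure D4:**
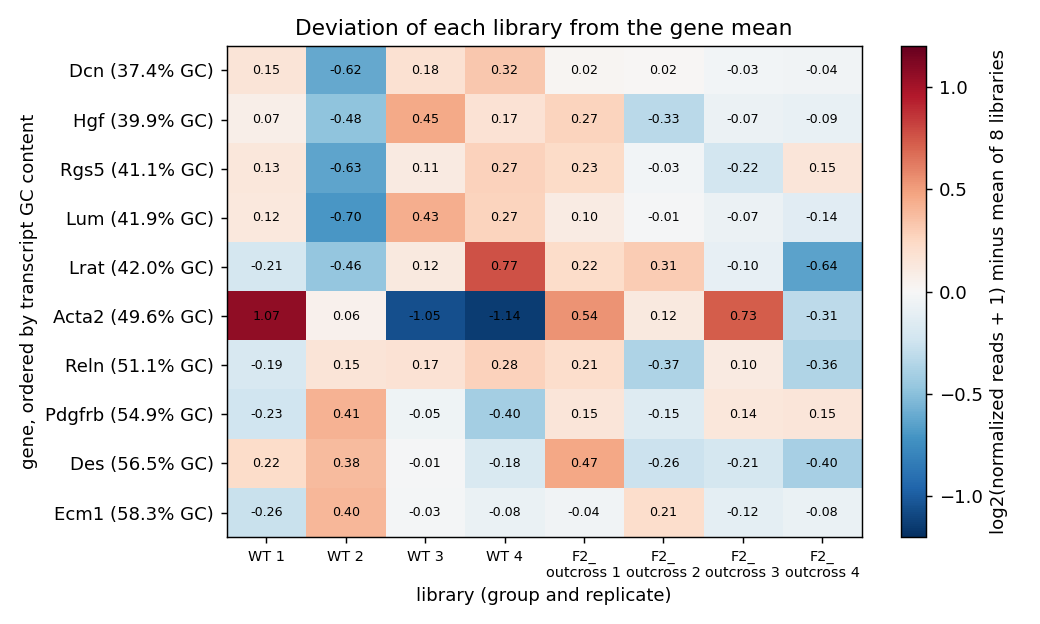
Deviation of each library from the gene's mean over 8 libraries, on log2(normalized reads + 1), with genes ordered by GC content of the longest transcript. In the column of WT replicate 2 the 5 genes with the lowest GC content are below 0, from -0.46 to -0.70, and the 3 with the highest are near 0.40.

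The genes whose patterns were most like those of single members, after each group's mean was subtracted, are named here as a description. For Lrat the 5 closest were Cyp26a1, Rhobtb3, Dnm1l, Depdc7 and Zfp975 (r from 0.964 to 0.978 over 8 libraries). For Reln they were Platr4, Tnrc6b, Micu3, Hhipl2 and Trpm7 (0.970 to 0.983). For Dcn they were Hmgn5, Eaf1, Uba3, Sh3bgrl and Cfhr3 (0.986 to 0.993), and among those for Rgs5 were Yes1, Igf1, Ddx50 and Mier1 (0.986 to 0.994), the latter with a GC content of 37.4% to 41.1%. Among those for Acta2 were Espn, Elof1, Acvrl1 and Rhbg (0.929 to 0.945), with a GC content of 55.7% to 62.1%. With GC and length trends removed, r fell to 0.592 for Dnm1l with Lrat, 0.547 for Micu3 with Reln, 0.677 for Cfhr3 with Dcn, 0.551 for Ddx50 with Rgs5 and 0.677 for Elof1 with Acta2, the lowest named gene of each. Cyp26a1 and Rhobtb3 with Lrat were then at 0.972 and 0.966, and Yes1 with Rgs5 at 0.989. With so many genes and 8 libraries, no test was made of values of this size.

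Other genes of quiescent stellate cells, 20 in the list, were all tested, and 1 rose, 0 fell and 19 did not pass (higher calls were 1.6% of all tested genes; list median log2 fold change -0.16). Adamtsl2, a secreted protein that binds latent TGF-beta binding protein, stood at 134, 135, 105 and 60.8 normalized reads in WT replicates 1 to 4 and at 218, 238, 226 and 223 in F2_outcross replicates 1 to 4. It rose 2.16-fold (log2 change 1.11 ± 0.22, limma adjusted p = 0.0257), and every F2_outcross library lay above every WT library. Leaving out single libraries ended the call in 3 of 8 fits, those without WT replicate 3, F2_outcross replicate 1 or F2_outcross replicate 2 (adjusted p up to 0.0680). Bmp10, a ligand that acts on sinusoidal endothelium, had a log2 change of -0.45 ± 0.17 (adjusted p = 0.162).

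Of the 4 PDGF ligands, 1 fell, 0 rose and 3 did not pass (lower calls were 1.06% of all tested genes). Pdgfc, which signals mainly through Pdgfra, stood at 179, 99.0, 105 and 113 in WT and at 57.1, 65.2, 63.3 and 65.3 in F2_outcross. It was 1.91-fold lower (log2 change -0.94 ± 0.20, limma adjusted p = 0.0313), and every F2_outcross library lay below every WT library. Of 8 fits with 1 library left out, the call held in 1, that without WT replicate 2, and the adjusted p reached 0.0875. Pdgfb, the ligand of Pdgfrb, had a log2 change of 0.20 ± 0.25 (adjusted p = 0.685) and Pdgfa one of 0.32 ± 0.21 (adjusted p = 0.410).

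Of 18 other smooth muscle and pericyte genes, 17 were in the table, 11 were tested and 0 passed (median log2 fold change 0.03). Cnn1, Actg2, Cspg4 and Higd1b, which mark mature smooth muscle and pericytes, had fewer than 10 reads in every library. Tagln, an actin-binding protein of smooth muscle, had a log2 change of -0.06 ± 0.23 (adjusted p = 0.901). Tpm1, a tropomyosin, averaged 1324 ± 130.03 in WT against 983 ± 70.2 in F2_outcross, with no overlap of the groups (log2 change -0.43 ± 0.10, adjusted p = 0.0522), and Mcam had a log2 change of 0.96 ± 0.33 (adjusted p = 0.124). Tpm1 passed in 5 of 17 alternatives.

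Of 14 genes linked to stellate cell activation, 11 were tested and 0 passed (median log2 fold change -0.06). The smallest p belonged to Postn, the matrix protein periostin, with a log2 fold change of -0.55 ± 0.29 (adjusted p = 0.306), and next to Mmp14, a membrane-bound collagenase, with -0.20 ± 0.12 (adjusted p = 0.368). Of the 13 tested retinoid genes 0 passed (median -0.13), and the smallest p was that of Pnpla3, a lipase for retinyl esters and triglycerides (log2 change 1.26 ± 0.36, adjusted p = 0.0820). Of 11 tested portal fibroblast genes 0 passed, while all but 3 had positive fold changes (median 0.31), and Gsn, gelsolin, had a log2 change of 0.82 ± 0.20 (adjusted p = 0.0522; 0.0338 with GC and length trends removed). Gsn passed in 3 of 17 alternatives, and its adjusted p reached 0.111. Thy1, a surface protein of portal fibroblasts and T cells, had the next smallest p in that list and the other sign (log2 change -0.74 ± 0.27, adjusted p = 0.149).

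Markers of other cells in the liver moved in part. Of 10 endothelial markers 0 passed, with 7 positive and 3 negative (median log2 fold change 0.07). The smallest p belonged to Vwf (log2 change 0.92 ± 0.30, adjusted p = 0.112), and next to Lyve1 (0.74 ± 0.28, adjusted p = 0.161). The groups did not overlap for Lyve1, as for 12% of all tested genes. The summed level of the 10 markers ran from 13477 to 15634 in WT and from 13471 to 14859 in F2_outcross normalized reads. That of 6 Kupffer cell markers ran from 11954 to 27904 in WT and from 10346 to 14718 in F2_outcross, and 0 of 6 passed although all 6 were lower (median log2 fold change -0.74). That of 7 lymphocyte markers ran from 187 to 455 in WT and from 94.0 to 168 in F2_outcross, and all 7 were lower (median log2 fold change -1.27). Of these 7, 1 passed, Nkg7 of cytotoxic cells (log2 change -1.10 ± 0.26, adjusted p = 0.0438), where 1.06% of all tested genes were lower calls. Nkg7 no longer passed under 9 of 16 alternatives (highest adjusted p = 0.141): 6 of the 8 that left out a library (all but WT replicate 2 and F2_outcross replicate 3), no filter (0.0792), voom (0.0519) and removal of GC and length trends (0.0673). That of 5 red blood cell markers ran from 9841 to 24225 in WT and from 6448 to 16989 in F2_outcross (0 of 5 passed, all 5 lower, median log2 fold change -0.90). That of 6 mesothelial markers ran from 180.2 to 648 in WT and from 384 to 815 in F2_outcross (0 of 6 passed, all 6 positive). WT replicate 4 was the lowest of all libraries for Lrrn4, Gpm6a and Msln, at 7.80, 47.6 and 49.1 normalized reads. Of 4 tested bile duct markers 1 rose, Spp1, which stellate and immune cells can also make (log2 change 1.08 ± 0.21, adjusted p = 0.0247), where 1.6% of all tested genes were higher calls. Its call ended without WT replicate 1 (adjusted p = 0.0681), WT replicate 4 (0.0574) or F2_outcross replicate 1 (0.0716). Of 8 hepatocyte markers 0 passed. The part of these cell types in the values of Adamtsl2 and Pdgfc was not tested.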

How the data were processed

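Liver RNA from 8 mice was made into directional libraries, per the labels' protocols. DESeq2, HISAT2, cutadapt and build GRCm38 appear in the submitters' processing notes without versions or roles. No source used here names the counter, its strand setting or the annotation. The authors deposited log2 values. The lowest, -3.32, equals log2 of 0.1. Raising 2 to each value and taking off 0.1 gave multiples of 1 step per library, and 100% of these were within 0.001 of a whole number of reads. They were therefore read as log2 of size-factor-normalized reads plus 0.1. Of 25069 lines, 395 with no symbol (0.611% to 1.22% of reads) were left out.

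Libraries were grouped by the genotype label, and replicates were numbered in accession order. A gene was tested if 4 or more of 8 libraries had 10 or more normalized reads. Tests used log2(value + 1), which understates changes of low genes, with limma 3.58.1 in R 4.3.3 (trend, two-sided, group as the only term, Benjamini-Hochberg threshold 0.05). Every adjusted p of a fold change is from that fit unless another setting is named. The method was checked on simulated data. Litters are not recorded, so p-values reflect spread among these 8 samples only. Exon length, GC content of the longest transcript and gene positions came from GENCODE M21 (GRCm38). Correlations were tested by exact two-sided permutation of libraries. The first 2 parts of the naming rule were all 10 members, and from each list the genes past the threshold or else up to 3 with the smallest p. The third was the 5 genes most like each of Lrat, Reln, Dcn, Acta2 and Rgs5, leaving out predicted models and pseudogenes. Values of 3 genes chosen by this rule are not given here. Cyp26a1, Cyp26b1, Rarb, Rbp4, Tagln, Bmp10, Pdgfa, Pdgfb, Alb, Clec4f, Stab2 and Lrp8, and the genes under 10 reads, were named from the lists after their values were seen. The members and lists were chosen with earlier results of these data known. Alternatives were pseudocounts of 0.5 and 5, no filter, a mean of at least 50, TMM and upper quartile scaling, robust moderation, limma voom on recovered reads, each library left out, and, added after the data were seen, removal of GC and length trends.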

Additional observations from a re-analysis of the deposited data

Results flagged for a closer look

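Pdgfrb in F2_outcross replicate 2 stood apart from its group, at 241 normalized reads, while the other 3 F2_outcross libraries lay between 295 and 297. Cyp26a1 in WT replicate 4 stood apart as well, at 2009.6 normalized reads against 178 to 457 in the other 3 WT libraries. These were 2 flags among 48 groups of 4 libraries, and chance gives about 1 in 20. A flag rests on the gap to the nearest library as a share of the group's range, 0.966 for Pdgfrb and 0.847 for Cyp26a1. Both shares were taken on normalized reads, and the log2 scale of the tests was not examined for flags.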

How the results depend on the processing

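No member passed the threshold in any of 17 alternatives, and the lowest adjusted p of a member was 0.122. Acta2 was not tested with a mean of at least 50. Of 169 member values under alternatives, 155 kept their direction and 14 changed sign. Removal of GC and length trends gave 0.030 for Ecm1, and the other changes of sign came from leaving out a library. Over those fits the log2 fold change ran from -0.28 to 0.13 for Lrat, -0.11 to 0.11 for Ecm1, -0.29 to 0.024 for Hgf, -0.14 to 0.16 for Rgs5, -0.23 to 0.087 for Dcn and -0.31 to 0.072 for Lum. It ran from -0.29 to 0.94 for Cyp26a1, -0.81 to 0.81 for Cyp26b1 and -0.30 to 0.17 for Rarb, none of which passed. The count of changed genes, 383 over all genes, ran from 111 (without F2_outcross replicate 2) to 1073 (without WT replicate 2) when a library was left out, and from 302 to 554 in the other alternatives. Upper quartile scaling gave 198 higher and 208 lower. Adamtsl2 and Pdgfc passed in each alternative that kept all 8 libraries. No paired analysis was possible because the labels carry no replicate numbers that the groups share. Reads per library limit Acta2, which rests on 8 to 51 reads, more than the other members.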
